A study of Mus musculus with 6 samples.

Results

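Canonical Wnt target genes and Tcf/Lef transcription factors were examined in mouse embryonic stem cells that carried hairpins against the histone demethylase family gene Jmjd1c. Of 10 listed genes (Axin2, Sp5, Nkd1, Rnf43, Dkk1, Lef1, Tcf7, Tcf7l1, Tcf7l2 and Ctnnb1), 9 had a probe set annotated to that gene alone, 21 probe sets in all among 45037 without controls. The expression of Tcf7 was not analysed here. The cells were of the J1 line, grown on gelatin with leukemia inhibitory factor (1000 U/ml) in medium of 15% serum, and each culture carried a pLKO.1 lentivirus and went through puromycin selection at 1.5 ug/ml for 2 days and 4 further days of culture. The tested groups expressed the hairpin shJmjd1c#4 or shJmjd1c#3, called sh4 and sh3 here, and the controls expressed the non-targeting hairpin shNT. Each of the 3 groups had 2 Affymetrix Mouse Genome 430 2.0 arrays. The labels call the replicates biological, and p-values measure only the spread between these few samples. No label says whether the resistant cells were a pool or a clone.

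In the canonical Wnt pathway, ligand binding to Frizzled and Lrp receptors stops the destruction complex, of which Axin2 is a part, from marking β-catenin (the product of Ctnnb1) for degradation. β-catenin then enters the nucleus and binds Tcf/Lef proteins, which otherwise repress their targets through Groucho-type corepressors. In mouse embryonic stem cells Tcf7l1 acts mainly as a repressor of pluripotency genes, and β-catenin relieves that repression. Axin2, Sp5, Nkd1, Rnf43, Dkk1 and Lef1 are themselves transcribed in response to the pathway, and most of them feed back on it.

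Tcf/Lef proteins bind a short element that was searched here in the forms CTTTGAA or CTTTGAT or CTTTGTA or CTTTGTT on both strands, in windows of 250 bases before and 50 after each annotated start (RefSeq, GRCm38.p6). A match was present in 4 of 17 windows of the listed genes and in 16.9% of all 32851 windows, and at least 2 matches in 2 of the 17 and in 1.94% of all. The sequences below, upstream of the start and read from 5′ to 3′ on the gene's strand, are those of the members with a match, which is in capitals. They are shown because they carry the element that the measured factors are known to bind. In Sp5 (first match) and Lef1 the element lies on the opposite strand, so the capitals are its reverse complement. The Sp5 sequence is chr2:70474673-70474922 (plus strand) and the Dkk1 sequence chr19:30549497-30549746 (minus strand). The Lef1 sequence, chr3:131156094-131156193 (plus strand), and the Tcf7l2 sequence, chr19:55895221-55895320 (plus strand), belong to the most downstream of the annotated starts of each gene.
Sp5: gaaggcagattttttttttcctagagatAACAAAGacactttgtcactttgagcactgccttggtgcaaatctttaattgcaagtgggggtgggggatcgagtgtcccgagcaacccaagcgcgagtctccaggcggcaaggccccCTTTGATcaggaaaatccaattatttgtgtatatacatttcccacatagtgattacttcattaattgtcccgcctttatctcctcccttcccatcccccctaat
Dkk1: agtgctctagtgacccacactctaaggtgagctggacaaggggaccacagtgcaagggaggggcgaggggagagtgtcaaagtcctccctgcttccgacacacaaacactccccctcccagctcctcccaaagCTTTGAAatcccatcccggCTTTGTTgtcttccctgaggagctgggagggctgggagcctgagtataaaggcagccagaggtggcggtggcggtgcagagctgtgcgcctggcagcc
Lef1: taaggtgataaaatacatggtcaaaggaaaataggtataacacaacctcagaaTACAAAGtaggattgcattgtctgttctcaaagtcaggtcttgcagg
Tcf7l2: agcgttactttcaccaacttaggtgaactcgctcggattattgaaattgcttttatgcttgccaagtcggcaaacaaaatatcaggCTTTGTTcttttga
In Sp5 the matches began 222 and 104 bases before the start, in Dkk1 117 and 98 bases before it. A match describes the letters only, and no match was found in the windows of Axin2, Nkd1, Rnf43, Tcf7l1, Ctnnb1 or Tcf7.

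Values are MAS5 signal intensities, scaled per array, and differences are of log2(signal + 16), which understates the change of dim genes. A gene was tested through its probe set of highest mean if that mean reached a signal of 40.1, and 12684 genes were. Jmjd1c was measured first. Its most abundant probe set, 1426900_at, read 3274 and 4215 in sh4, 4541 and 4984 in sh3, and 6060.3 and 5516 in shNT, and each knockdown array was below each control array. The difference of the mean of both hairpins from shNT (the knockdown mean) was -0.46 (SE 0.13, adjusted p = 0.358 by limma), which did not pass the threshold of 0.05. In sh4 alone, at -0.64, it passed once the replicate number was fitted as a block (adjusted p = 0.281 by limma, 0.0394 with the block). The other probe sets of Jmjd1c, 1448049_at and 1439998_at, had higher signals in all 4 knockdown arrays. Their differences were 0.90 (adjusted p = 0.117 by limma, and 0.0127 with the block, which it passed) and 0.73 (adjusted p = 0.439 and 0.197 by limma). The probe sets of the targeted gene thus opposed each other in sign, and the groups are called knockdown by their labels. The Actb probe set at the 3′ end over that at the 5′ end, which tracks RNA integrity, gave ratios of 2.80 and 2.81 in sh4, 2.26 and 2.40 in sh3, and 2.70 and 2.77 in shNT. Signal of the control for 18S ribosomal RNA was 4812 and 5953 in sh4, 7711 and 6423 in sh3, and 11323 and 8597 in shNT, lower in all 4 knockdown arrays, and its part in the results below was not tested. The summed signal of 8 embryonic stem cell markers was 93451 and 98896 in sh4, 86382 and 92309 in sh3, and 100761 and 119565 in shNT, lower in all 4 knockdown arrays. None of the 8 passed by limma, 7 had negative differences and 3 fell with the block. Over all genes 0.166% fell by limma and 2.26% fell with the block. The sum of 11 fibroblast markers was 1893 and 1871 in sh4, 1477 and 1575 in sh3, and 1085 and 1082 in shNT, higher in all 4 knockdown arrays, and its part in the results below was not tested. Of these markers 8 were tested, and all 8 had positive differences. Col3a1 alone passed by limma (2.01, adjusted p = 0.0336), and 2, Col3a1 and Dcn, rose with the block, against 0.56% and 3.33% of all genes. Col3a1 read 25.6 and 37.6 in shNT and Dcn 10.9 and 11.7, below the filter signal. Both were therefore tested only through their high knockdown arrays. The filter thus favoured positive differences and calls of higher among the tested markers.

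No member passed the threshold in the knockdown mean by limma, and 1 of the 8 tested had an unadjusted p under 0.05. Over all genes 0.725% passed and 12.3% had an unadjusted p under 0.05. The same held for sh4 alone (0 of 8, 2 with an unadjusted p under 0.05, against 0.363% and 12.1% of all genes), for sh3 alone (0 of 8, 1 unadjusted, against 0.071% and 9.74% of all) and for sh4 minus sh3 (0 of 8, 1 unadjusted, against 0% and 6.1% of all). The hairpin comparisons share the control arrays. The member differences in the knockdown mean ran from -0.20 (Ctnnb1) to 0.67 (Lef1) with a median of 0.31, against a median of 0.01 over all genes, and 6 were positive. In 2 of the 8, Tcf7l1 and Nkd1, all 4 knockdown arrays lay above both controls, and in none below, beside 11.2% and 9.54% of all genes. Arrays with the same replicate number deviated together from their group means (r = 0.223 to 0.302 across 12684 genes, which are not independent replicates), and the replicate number was therefore also fitted as a block. With the block 1 member passed in the knockdown mean (Tcf7l1, higher), against 5.6% of all genes in either direction. In sh3 alone 1 passed (Tcf7l1, higher; 3.43% of all, 2.03% higher) and in sh4 alone 1 (Ctnnb1, lower; 4.9% of all, 2.22% lower). In sh4 minus sh3 none passed with the block, against 0.418% of all. No label says that a number marks a shared day or batch, and these calls depend on that pairing.

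**Figure D1:**
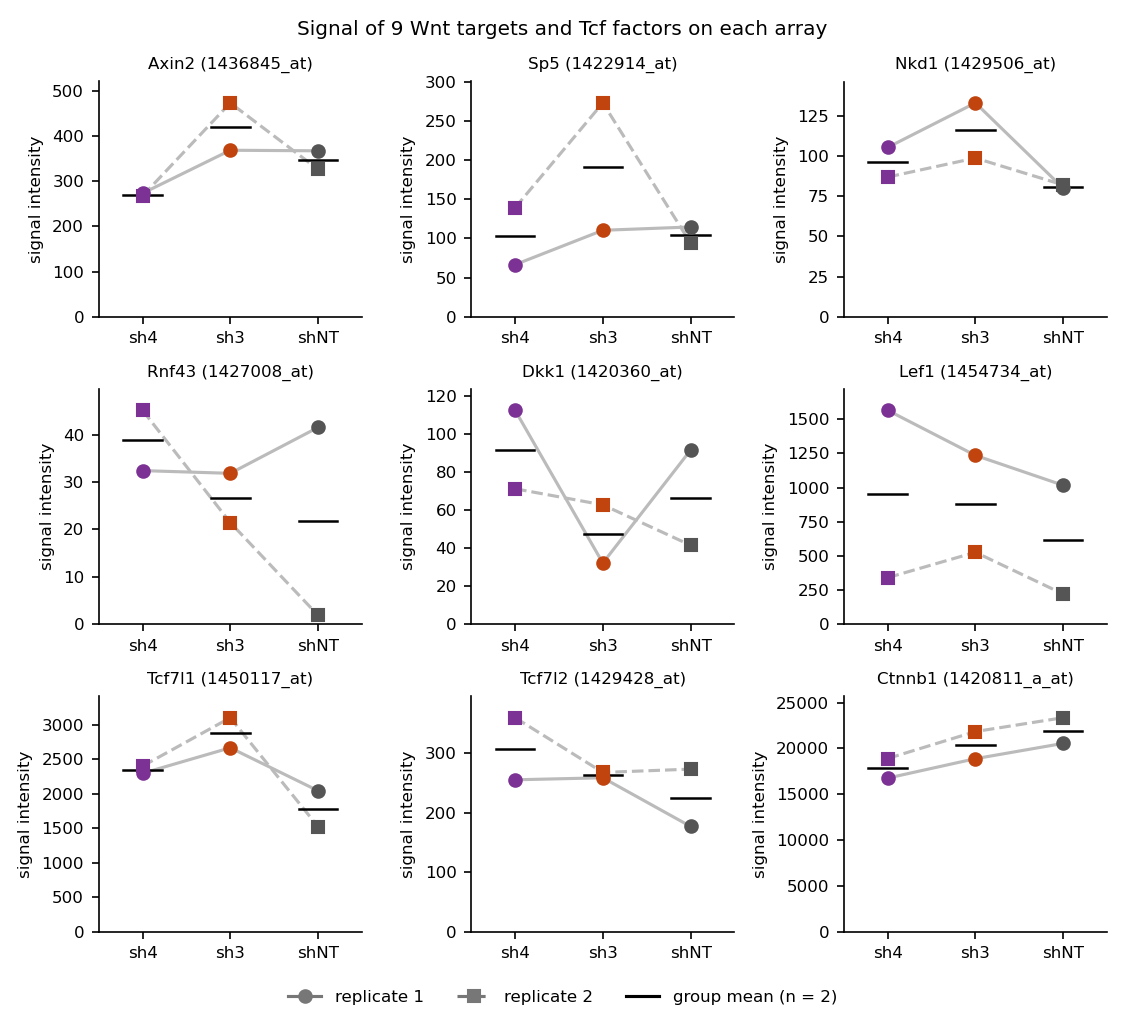
Signal intensity (linear scale, from 0) of the brightest probe set of each of 9 members in sh4, sh3 and shNT arrays. Circles are replicate 1, squares replicate 2, grey lines join the arrays of 1 replicate number and black bars are means of 2 arrays; Lef1 is 527 or below in all replicate 2 arrays and 1017 or above in all replicate 1 arrays, while the knockdown arrays of Tcf7l1 all lie above both shNT arrays.

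Among the factors, Tcf7l1 had the clearest difference. Its probe set 1450117_at read 2298 and 2403 in sh4, 2669 and 3106 in sh3, and 2045 and 1524 in shNT. Every knockdown array lay above both controls, and the sh3 arrays above the sh4 arrays. The knockdown mean averaged 2619 ± 360.2 in 4 arrays and shNT 1785 ± 369 in 2 (SD), a log2 difference of 0.55 (SE 0.14, 95% interval 0.25 to 0.86; unadjusted p = 0.00289, adjusted p = 0.148 by limma). With the replicate block the same difference passed (SE 0.12, adjusted p = 0.0231 by limma). It was 0.41 in sh4 (adjusted p = 0.344 by limma) and 0.70 in sh3 (adjusted p = 0.181, and 0.021 with the block, by limma), and sh4 minus sh3 was -0.29 (95% interval -0.65 to 0.07, adjusted p = 0.83 by limma). Within replicate number 1 the knockdown mean was 0.27 above shNT and within number 2 it was 0.84 above, and without control 2 the difference was 0.34, without control 1 0.76. The second probe set of Tcf7l1, 1436207_at, read 944 and 822 in sh4, 729.6 and 705 in sh3, and 498 and 885 in shNT. Here the groups overlapped, control 2 being the second highest array, with a knockdown mean 0.25 above shNT (SE 0.21, adjusted p = 0.796 by limma over all probe sets). In the fit over all 45037 probe sets 1450117_at was at an adjusted p of 0.316 by limma, 0.075 with the block.

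Lef1, an activating partner of β-catenin and itself a target of the pathway, varied more between replicates than between groups. Its probe set 1454734_at read 1566 and 341 in sh4, 1236 and 527 in sh3, and 1017 and 221 in shNT. Replicate 1 was above replicate 2 in every group, by 4.60 times in sh4, 2.35 times in sh3 and 4.60 times in shNT. This feature was singled out after the values were seen: 8 of 12684 tested genes, Lef1 included, had a gap of 1 sign in all 3 groups that was nowhere smaller than Lef1's smallest. The knockdown mean minus shNT was 0.67 (SE 0.68, 95% interval -0.86 to 2.20, adjusted p = 0.764 by limma), within the spread between replicates. With the block its SE was 0.18 and its adjusted p 0.0548 by limma, which did not pass. The difference was 0.45 within replicate number 1 and 0.89 within number 2, and without control 2 it was -0.39, without control 1 1.73. The dimmer probe set 1421299_a_at read 111 and 26.3 in sh4, 40.5 and 33.3 in sh3, and 65.4 and 4.23 in shNT, again with replicate 1 above replicate 2 in each group.

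Tcf7l2, a further Tcf factor, read 256 and 360.2 in sh4, 259 and 268 in sh3, and 177 and 274 in shNT at its brightest probe set 1429428_at. Control 2 lay among the knockdown arrays and control 1 below all of them. Knockdown minus shNT came to 0.34 (SE 0.23, 95% interval -0.18 to 0.86, adjusted p = 0.62 by limma). Without control 1 it was 0.046 and without control 2 it was 0.63. The next probe set, 1429427_s_at, differed by 0.31, and those at 1425229_a_at and 1426639_a_at were below the filter, with signals of 0.849 to 55.6.

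Ctnnb1, which encodes β-catenin, had 3 probe sets, all above the filter. The brightest, 1420811_a_at, read 16761 and 18901 in sh4, 18882 and 21843 in sh3, and 20550.1 and 23357 in shNT. Both sh4 arrays and sh3 replicate 1 lay below both controls, and sh3 replicate 2 lay between them. In sh4 the difference was -0.30 (SE 0.13, 95% interval -0.58 to -0.01, adjusted p = 0.388 by limma), and with the block it passed (SE 0.07, adjusted p = 0.0272 by limma). It was -0.29 within replicate number 1 and -0.31 within number 2. In sh3 the difference was -0.11 (adjusted p = 0.838 by limma), but sh4 minus sh3 was -0.19 (95% interval -0.48 to 0.10, adjusted p = 0.867 by limma), so at this probe set a difference between the hairpins was not shown. Probe set 1450008_a_at read 1642 and 1839 in sh4, 2497 and 2503 in sh3, and 2524 and 2448 in shNT. The sh4 arrays were again the lowest, with sh4 minus shNT at -0.51 and sh3 minus shNT at 0.01. At 1450008_a_at sh4 minus sh3 was -0.52 (unadjusted p = 0.00195, adjusted p = 0.875 by limma over all probe sets), which failed the correction. At 1430533_a_at the readings were 195 and 248 in sh4, 259.9 and 252 in sh3, and 259 and 342 in shNT. The 3 probe sets thus had negative differences in sh4 (-0.30, -0.51 and -0.41), none of them past the threshold over all probe sets.

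**Figure D2:**
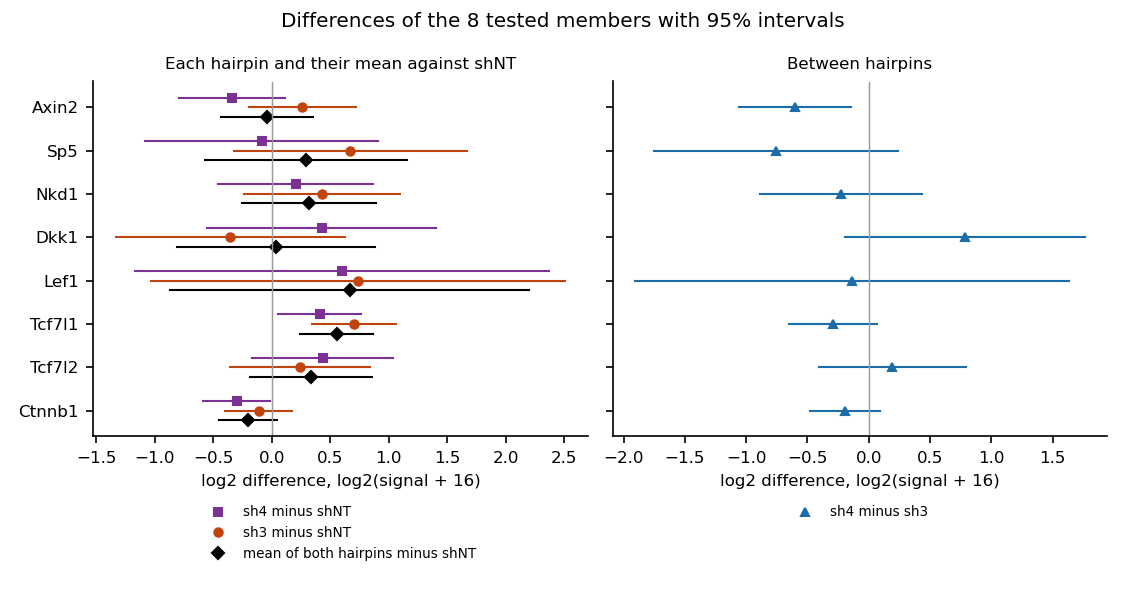
Log2 differences of log2(signal + 16) for the 8 tested members with 95% intervals from limma, for sh4, sh3 and their mean minus shNT (left) and for sh4 minus sh3 (right). The intervals of Tcf7l1 lie above 0 for both hairpins and their mean, the sh4 interval of Ctnnb1 lies just below 0, and the Axin2 interval of sh4 minus sh3 runs from -1.06 to -0.14.

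Among the targets, Axin2, a scaffold of the destruction complex and a widely used readout of the pathway, had a knockdown mean level with the controls. Probe set 1436845_at read 273 and 268 in sh4, 369 and 474 in sh3, and 367 and 327 in shNT. Both sh4 arrays lay below both controls and both sh3 arrays above them, sh3 replicate 1 by 369 against 367. The knockdown mean minus shNT was -0.04 (SE 0.17, 95% interval -0.43 to 0.36, adjusted p = 0.957 by limma). The hairpins differed by -0.60, sh4 minus sh3 (SE 0.20, 95% interval -1.06 to -0.14; unadjusted p = 0.0157, adjusted p = 0.712 by limma, and 0.187 with the block), which failed the correction over all genes. The difference was -0.41 within replicate number 1 and -0.79 within number 2. The Actb ratio given above was also higher in both sh4 arrays than in both sh3 arrays, and its part in this difference was not tested. The other Axin2 probe set, 1421341_at, read 5.13 to 44.8 over the 6 arrays, below the filter.

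Sp5, a zinc finger factor and direct target, read 66.6 and 139 in sh4, 110.4 and 273 in sh3, and 115 and 94.2 in shNT. Replicate 2 of each hairpin lay above both controls and replicate 1 below the higher one. The knockdown mean minus shNT was 0.29 (SE 0.38, 95% interval -0.57 to 1.16, adjusted p = 0.827 by limma), and it was -0.35 within replicate number 1 and 0.94 within number 2.

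Nkd1, which binds Dishevelled and dampens the signal, read 105 and 86.9 in sh4, 133 and 98.7 in sh3, and 80.0 and 82.0 in shNT at 1429506_at. All 4 knockdown arrays lay above both controls, with a difference of 0.32 (SE 0.25, 95% interval -0.26 to 0.89, adjusted p = 0.687 by limma). The other 3 probe sets of Nkd1 were at -0.02, -0.13 and -0.16 and their groups overlapped, so the probe sets disagreed in sign. Dkk1, a secreted inhibitor of the Lrp coreceptors, read 112 and 71.1 in sh4, 32.1 and 62.7 in sh3, and 91.4 and 41.5 in shNT at 1420360_at. The groups overlapped, and the difference of 0.04 (SE 0.37, adjusted p = 0.98 by limma) turned to -0.02 with quantile normalization and -0.04 with median centring. Its other probe set, 1458232_at, was below the filter at 2.04 to 31.7. Rnf43, a membrane ubiquitin ligase that removes Frizzled receptors, was not tested, since its probe set 1427008_at read only 32.4 and 45.1 in sh4, 31.8 and 21.5 in sh3, and 41.5 and 1.88 in shNT.

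**Figure D3:**
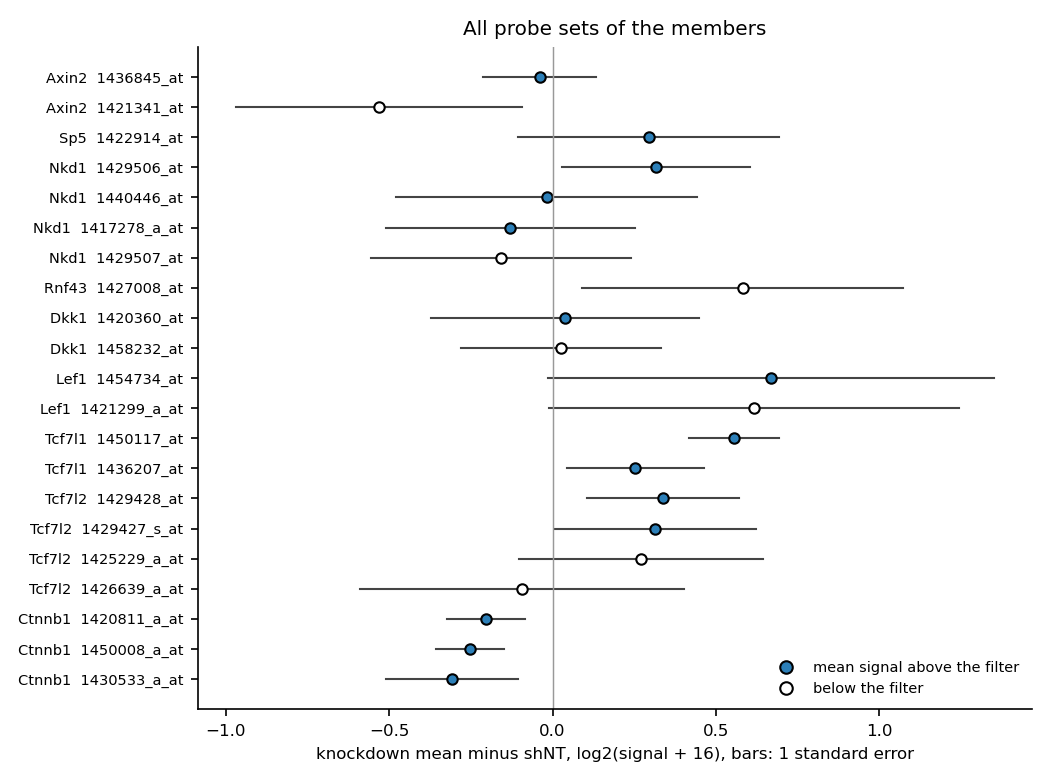
Difference of the knockdown mean from shNT on the log2(signal + 16) scale for all 21 member probe sets, with bars of 1 standard error. Filled circles are the 14 probe sets with a mean above the filter. Of the genes with more than 1 filled circle, Ctnnb1, Tcf7l1 and Tcf7l2 keep 1 sign in them and Nkd1 does not.

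Across the 21 probe sets, 12 differences were positive and 9 negative, with a median of 0.04 against 0.02 over all probe sets. In 2 of them, those of Tcf7l1 and Nkd1 named above, all 4 knockdown arrays lay above both controls, beside 9.66% of all probe sets. None passed by limma with or without the block (2 had an unadjusted p under 0.05), against 0.0422% and 1.03% of all 45037, of which 8.66% had an unadjusted p under 0.05.

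The wider pathway was described by role over 143 further genes, of which 106 were tested; 4 rose and 0 fell by limma in the knockdown mean (0.56% and 0.166% of all genes), and 10 rose and 10 fell with the block (3.33% and 2.26% of all). The median over the 106 was 0.06. The lists, like the members, were chosen with earlier results of these data known. Counts set beside shares of all genes, here and below, are therefore no independent comparison. Among the receptors and secretion genes, Fzd2, a Frizzled receptor, read 1049 and 756 in sh4, 739.7 and 741 in sh3, and 337 and 376 in shNT. All knockdown arrays were well above both controls, by 1.15 on the log2 scale (SE 0.16, adjusted p = 0.0246 by limma). Fzd2 alone of 17 such genes passed; with the block 5 rose and 1 fell, and the list median was 0.33. Those with the block were Fzd2, the secretion factor Wls (0.65, adjusted p = 0.0255 by limma), the receptor Ror1 (1.08, 0.018), Fzd6 (0.58, 0.0476) and, named after its values were seen, the Wnt acyltransferase Porcn (0.59, 0.0358). Fzd5, which fell with the block (-0.69, adjusted p = 0.015 by limma), read 1209 and 2149 in sh4, 1526 and 1871 in sh3, and 2664 and 2696 in shNT, with every knockdown array below both controls.

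No Wnt ligand passed with or without the block; only 8 of 19 reached the filter, with a median of 0.18, and Wnt7b read 183 and 194 in sh4, 147 and 176 in sh3, and 124 and 157 in shNT. Others with values were Wnt11 (0.46), Wnt8a (0.39) and Wnt4 (0.25). Wnt8a read 35.9 and 38.6 in shNT, below the filter signal, and was tested only through knockdown arrays of higher signal. Of the R-spondins and their Lgr receptors 3 of 7 were tested, Lgr4, Lgr6 and Rspo1, with differences of -0.02, -0.04 and -0.02. Among 11 tested inhibitors none passed without the block, and 1 fell with it: Shisa2, which retains receptors in the endoplasmic reticulum, read 276 and 218 in sh4, 233 and 213 in sh3, and 398 and 402 in shNT (-0.73, adjusted p = 0.147 by limma, 0.0235 with the block). Sfrp5 (0.92), Apcdd1 (0.55) and Kremen1 (0.34) had all knockdown arrays above both controls but did not pass with or without the block. They were named for the smallest p of the list after Shisa2, and 11.2% of all genes had that order of arrays. Sfrp5 read 25.1 and 38.2 in shNT, below the filter signal, so it was tested only through its high knockdown arrays.

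Of 16 destruction complex and Dishevelled genes none passed with or without the block. The median was -0.02, with 7 differences positive and 9 negative. In the knockdown mean 1 of the 16 had an unadjusted p under 0.05 by limma, against 12.3% of all genes. The genes of smallest p were the casein kinases Csnk1e (-0.30) and Csnk1a1 (-0.18), Dvl2 (-0.25) and the tankyrase Tnks2 (-0.20). Each of these had all knockdown arrays below both controls, as had 9.54% of all genes. Of 18 nuclear cofactors none passed without the block and 1, the kinase Hipk2 (0.62, adjusted p = 0.0464 by limma), rose with it. The Groucho-type corepressor Tle3 was at -0.34 and Tle4 at 0.21, and Sox17, which binds β-catenin and marks endoderm, at 0.96. Sox17 read 261 and 159.7 in sh4, 65.6 and 62.0 in sh3, and 59.2 and 45.9 in shNT. In sh4 alone it rose with the block (1.69, adjusted p = 0.00902 by limma). The summed signal of 8 primitive endoderm markers, Sox17 among them, was 4413 and 4775 in sh4, 3567 and 3686 in sh3, and 3225 and 2823 in shNT. Most of this sum was Lamb1 alone, at 3045 and 3829 in sh4, 3021 and 3200 in sh3, and 2662 and 2417 in shNT. In sh4 5 of the 6 tested markers had positive differences and 1 negative, with a median of 0.78. None passed without the block, 4 had an unadjusted p under 0.05 by limma, and 2, Sox17 among them, rose with the block. Over all genes 12.1% had such an unadjusted p in sh4 and 4.9% passed with the block in either direction. In sh3 4 of the 6 had positive differences and 2 negative, and none passed with or without the block. Of 8 adhesion partners of β-catenin none passed without the block and N-cadherin, Cdh2, rose with it (1.17, adjusted p = 0.000457 by limma). E-cadherin, Cdh1, was at 0.24, p120 catenin, Ctnnd1, at 0.26, and plakoglobin, Jup, at 0.22.

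Among 20 other genes known as canonical targets, 3 rose by limma: Cdx2, a homeobox factor, by 2.47 (adjusted p = 0.0361), the matrix receptor Cd44 by 1.30 (adjusted p = 0.0485) and the AP-1 subunit Jun by 0.83 (adjusted p = 0.0482). Cdx2 read 104 and 119.8 in sh4, 90.6 and 209 in sh3, and 18.8 and 2.43 in shNT. Its controls lay below the filter signal, so Cdx2 was tested only through its high knockdown arrays. The filter thus favoured a call of higher, and the fold depends on the constant added. Cd44 read 229.96 and 201 in sh4, 129.6 and 116 in sh3, and 51.6 and 62.1 in shNT. Jun read 795 and 961 in sh4, 724 and 845 in sh3, and 430.3 and 486 in shNT. All 3 had every knockdown array above both controls, and with the block these 3 rose and Tiam1, an exchange factor for Rac, fell (-0.57, adjusted p = 0.0146 by limma). The list median was 0.27. Gad1 (-0.68), Twist1 (0.78) and Tnfrsf19 (0.58) did not pass with or without the block. The Cd44 call held in 2 of 17 alternatives, a pseudocount of 64 and the block, the Jun call in 5 and the Cdx2 call in 8, and the Fzd2 call above in 10. Without control 2, sh3 replicate 2 or sh4 replicate 1 none of the 4 passed. These genes answer to other inputs as well, and the fibroblast marker sum given above was also higher in all knockdown arrays.

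Genes that Tcf7l1 is known to repress in mouse embryonic stem cells all had negative differences in the knockdown mean, while in sh4 alone 1 was positive. Of 9 tested none passed by limma without the block, and 5 had an unadjusted p under 0.05, against 12.3% of all genes. With the block 7 fell, against 2.26% of all: Tcl1, Esrrb, Klf2, Nr5a2, Tfcp2l1, Nr0b1 and Nanog, the last 3 named after their values were seen. Pou5f1 (-0.04, adjusted p = 0.933 by limma) and Tbx3 (-0.18, adjusted p = 0.855 by limma) did not pass with or without the block. The median was -0.68. Tcl1, a cofactor of the kinase Akt, read 511 and 1159.9 in sh4, 766 and 1155 in sh3, and 1593 and 2503 in shNT. Every knockdown array was under both control arrays (-1.21, adjusted p = 0.164 by limma, 0.000383 with the block). The naive-state factor Esrrb read 1775 and 2687 in sh4, 1855 and 2515 in sh3, and 2958 and 4691 in shNT (-0.77, adjusted p = 0.207 by limma, 0.000586 with the block). Klf2 was at -0.68 and Nr5a2 at -0.71, with the same order of arrays against the controls (adjusted p = 0.198 and 0.254 by limma, 0.00116 and 0.00484 with the block). These genes are also general markers of naive stem cells, and the stem cell marker sum given above was lower in all knockdown arrays too, with its part not tested. Nanog and Pou5f1 are in both lists, so the marker sum is not a separate observation. A lower share of such cells and less RNA per cell cannot be told apart in bulk samples.

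**Figure D4:**
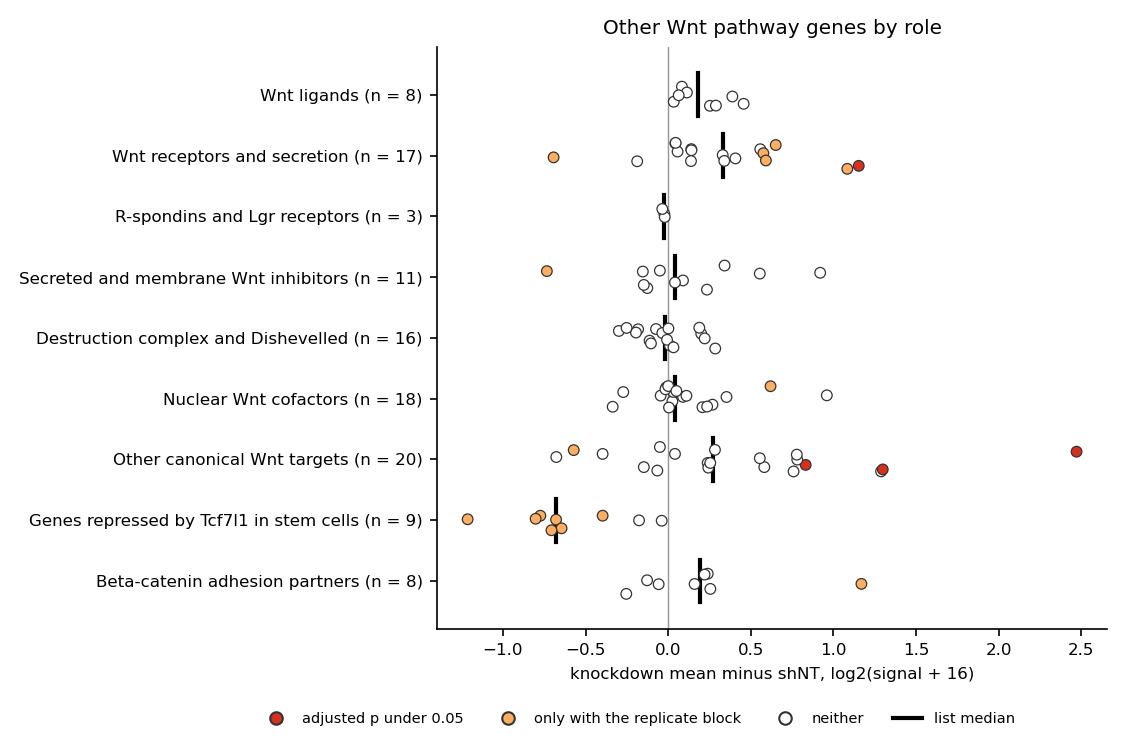
Difference of the knockdown mean from shNT on the log2(signal + 16) scale for each tested gene of 9 lists of the Wnt pathway, members left out. Red points passed by limma, orange ones only with the replicate block and white ones neither, and black bars are list medians, from -0.68 for genes repressed by Tcf7l1 to 0.33 for receptors and secretion genes; vertical scatter within a list has no meaning.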

How the data were processed

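The deposited values are signal intensities made by the authors with MAS5, per the submitters' processing notes, from 6 ug total RNA per array, with no version stated. The trimmed mean was about equal on all arrays, and the values were used as deposited. Gene symbols came from the platform annotation, and probe sets with several symbols were left out (932). Probe sets of Tcf3 and Tcf4, which by gene ID are E-protein genes, were not taken for Tcf7l1 and Tcf7l2. Signals became log2(signal + 16). Per gene the probe set with the highest mean was kept if it reached the 40th percentile among non-control probe sets. A model of 3 group means was fitted to the 6 arrays with limma 3.58.1 (R 4.3.3) (residual df 3, prior df 5.96; 2 and 9.34 with the replicate number as a block), with an intensity trend, two-sided tests and Benjamini-Hochberg adjustment over all genes. All probe sets were fitted likewise without a filter. Members and lists were chosen with earlier results of these data known. Named genes are all members, and of each pathway list the genes that passed and up to 4 more of smallest p. For the cell marker lists this rule was not followed. Replicate numbers come from the titles; the pairing was inferred from the correlation of deviations. Alternatives changed the pseudocount, filter, scaling, trend, probe set choice, block, grouping and arrays.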

Additional observations from a re-analysis of the deposited data

Results flagged for a closer look

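At Axin2 probe set 1436845_at both sh4 arrays lay below both shNT arrays and both sh3 arrays above them. Neither hairpin passed against shNT: sh4 was at -0.34 (adjusted p = 0.559 by limma) and sh3 at 0.26 (adjusted p = 0.741 by limma). Between the hairpins, sh4 minus sh3 came to -0.60 on the log2 scale (unadjusted p = 0.0157, adjusted p = 0.712 by limma), so the test of the difference did not pass. The margin in sh3 replicate 1 was 369 against 367 in control 1, a log2 difference of 0.0046.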

How the results depend on the processing

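The count of members called was 0 in the knockdown mean, in each hairpin and between hairpins under each alternative run (pseudocounts of 1 and 64, no filter and a 60th percentile filter, quantile normalization, median centring, no intensity trend, the mean of probe sets, no _x_at, _s_at or _a_at probe sets, and leaving out each array; with the knockdown arrays as 1 group only the knockdown mean was fitted, also with 0), except with the replicate block, which gave 1 in the knockdown mean, 1 in sh3 and 1 in sh4. Tcf7l1 kept its direction in all 17 settings (0.34 to 0.76), with an adjusted p of 0.0231 with the block and up to 0.457 elsewhere by limma. Ctnnb1, Tcf7l2 and Nkd1 kept theirs too, with Ctnnb1 from -0.30 to -0.11, Tcf7l2 from 0.046 (without control 1) to 0.63 (without control 2) and Nkd1 from 0.22 to 0.41 when arrays were left out. Nkd1 was 0.003 with the mean of probe sets and was not tested at the 60th percentile filter. Dkk1 was -0.0199 with quantile normalization, -0.0371 with median centring, and ran from -0.41 to 0.49 when arrays were left out; over the same removals Lef1 ran from -0.39 to 1.73, Axin2 from -0.13 to 0.047 and Sp5 from -0.00397 to 0.59.

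The count of pathway genes called, 4 in the main setting, was 20 with the replicate block, 2 each with the 60th percentile filter, quantile normalization, median centring and without suffixed probe sets, 1 each with a pseudocount of 1, without a filter and with the mean of probe sets, and 0 without a trend. It was 0 to 2 when 1 array was left out, 0 without control 2, sh3 replicate 2 or sh4 replicate 1, and in these removals Fzd2 was called only without sh4 replicate 2. Over all genes 92 passed in the main setting, 710 with the block, 36 without a filter, 34 with the mean of probe sets, 50 without suffixed probe sets and 0 without a trend; with 1 array left out it was 4 without control 2, 8 without sh4 replicate 1, 10 without sh3 replicate 2, 26 without sh3 replicate 1, 41 without sh4 replicate 2 and 43 without control 1. With 2 arrays a group the 95% intervals of Sp5 (-0.57 to 1.16) and Dkk1 (-0.81 to 0.89) limit what could be detected.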
